A study of Mus musculus with 9 samples.

Results

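The arms of miR-132 and miR-212 were followed in the hippocampus of mice given fine airborne particles or saline through the airways. All 4 mature miRNAs whose name on the array begins with miR-132 or miR-212 were taken, of 1247 mouse miRNAs measured: mmu-miR-132-3p, mmu-miR-132-5p, mmu-miR-212-3p and mmu-miR-212-5p, written below without the species prefix. Male C57BL/6 mice, about 8 weeks old, received oropharyngeal aspiration every other day for 4 weeks, of saline (control) or of PM2.5, airborne particles of the fine, respirable fraction, at 1 mg/kg bw (the lower dose) or 5 mg/kg bw (the higher dose). The labels give no genotype, transgene or other treatment. RNA of the hippocampus was measured on 9 Agilent arrays of mouse miRNAs, 3 per group, and the dose groups were compared with the control group to find miRNAs that respond to PM2.5.

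miR-132 and miR-212 are cut from neighbouring hairpins of a shared primary transcript. In neurons this locus is transcribed when the transcription factor CREB is activated, for instance by synaptic activity or by the neurotrophin BDNF, and both miRNAs are widely used as markers of neuronal activity in the hippocampus. Each hairpin has a 5p and a 3p arm, and after processing usually 1 of them is kept in the silencing complex (the guide) while the other is degraded. For miR-132 the 3p arm is the known guide. The 3p arm of miR-212 is called a guide below as well, although both arms of that hairpin were detected on these arrays. miR-132-3p represses regulators of dendrite and spine growth such as the GTPase-activating protein p250GAP.

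The mature sequences are shown because the seed, bases 2 to 8 and here in capitals, is the stretch by which a miRNA recognizes its targets. They are written 5′ to 3′ and were taken from RefSeq (mouse assembly GRCm38.p6), in which all 4 names were found.
miR-132-3p: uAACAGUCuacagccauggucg
miR-212-3p: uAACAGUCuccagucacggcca
miR-132-5p: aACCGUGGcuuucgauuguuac
miR-212-5p: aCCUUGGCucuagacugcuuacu
Both 3p arms had the seed AACAGUC, which 0 other names among the 1679 mature miRNAs of the table share. Counted from 1 at the 5′ end, their first 9 bases were identical, 17 of 22 positions agreed, and miR-212-3p differed from miR-132-3p by A10C, C14U, U17C, U20C and G22A. The seeds of the 5p arms differed from each other and from that of the 3p arms.

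In GRCm38.p6 both hairpins lay on the plus strand of chromosome 11, Mir212 at chr11:75173388-75173478 and Mir132 at chr11:75173682-75173747. The 203 bases between them and the 360 bases they span together held no other gene of the annotation. The nearest genes were Hic1, which ended 3132 bases before Mir212, and Ovca2, which began 2195 bases after Mir132. miR-132-3p lay at chr11:75173723-75173744, miR-132-5p at chr11:75173686-75173707, miR-212-3p at chr11:75173443-75173464 and miR-212-5p at chr11:75173403-75173425.

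Each member was measured by 2 probes of 20 spots each. The probes bind the 3′ part of the miRNA, which is where the 3p arms differ. The probes for miR-132-3p match bases 7 to 22 and 8 to 22, and their targets share at most 4 bases in a row with miR-212-3p. The probes for miR-212-3p match bases 9 to 22 and 10 to 22, and their targets share at most 5 bases in a row with miR-132-3p.

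Between 410 and 436 miRNAs were detected per array, 0 spots were saturated, and the 75th percentile by which each array was scaled lay between 492 and 614 intensity units. Values below are log2 of the background-subtracted signal divided by that percentile, so that 0 is the level of the 75th percentile of the miRNAs detected on all 9 arrays. A value compares arrays and not miRNAs, since each probe binds with its own strength. Of the hippocampal cell types, all 6 listed neuronal miRNAs were detected, and the neuronal miR-124-3p was detected on 9 of 9 arrays. The first-named markers of choroid plexus (miR-204-5p), blood (miR-451a), oligodendrocytes (miR-219-5p), microglia and leukocytes (miR-223-3p) and vessels (miR-126-3p) were likewise detected on 9 of 9 arrays. The replicates are separate arrays, which the study describes as separate mice, and p-values measure the spread between them.

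miR-132-3p, miR-212-3p and miR-212-5p were detected on 9 of 9 arrays, and miR-132-5p on 0 of 9. For mmu-miR-132-5p, the arm opposite to the guide, 1 of 360 spots over the 9 arrays was well above background, and its probe means lay between -1.91 and 2.06 units. It was not well above background in any group, so no change was computed for it. A low level of this arm and weak binding of its probes cannot be told apart here. For miR-212 both arms were measurable. The guide arm of miR-132 was measured far above background, with probe means of 1878 to 3324 units for the shorter and 2971 to 5379 units for the longer probe. For miR-212-3p these ranges were 152 to 217 and 279 to 389 units. For miR-212-5p they were 14.1 to 21.8 units, with 159 of 180 spots well above background, and 131 to 199 units.

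mmu-miR-132-3p, the guide arm of miR-132, had log2 signals of 3.79, 3.21 and 3.54 on the control arrays. At the lower dose they were 3.28, 3.02 and 3.71, and at the higher dose 3.40, 3.20 and 3.83. Each group held 1 high array, between 3.71 and 3.83, and 1 low array, between 3.02 and 3.21, so the groups overlapped over nearly their whole range. The means were 3.51 ± 0.29 (SD, n = 3) in the control group, 3.33 ± 0.35 (SD, n = 3) at the lower dose and 3.47 ± 0.32 (SD, n = 3) at the higher dose. In order from highest to lowest they ran control, higher dose, lower dose, and no neighbours in this order differed beyond their spread.

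mmu-miR-212-3p, which shares the seed of miR-132-3p, had log2 signals of -0.11, -0.36 and -0.028 in the control group. They were -0.11, -0.41 and -0.20 at the lower dose, and -0.062, -0.21 and -0.018 at the higher dose. The lowest array was again replicate 2 of each group, and the groups overlapped. The means were -0.17 ± 0.18 (SD, n = 3), -0.24 ± 0.15 (SD, n = 3) and -0.097 ± 0.10 (SD, n = 3), ordered higher dose, control, lower dose.

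mmu-miR-212-5p, the opposite arm of the miR-212 hairpin, had log2 signals of -1.53, -1.80 and -1.58 in the control group. They were -1.79, -2.05 and -1.60 at the lower dose, and -1.54, -1.78 and -1.48 at the higher dose. Here too the groups overlapped. The means were -1.64 ± 0.15 (SD, n = 3), -1.81 ± 0.23 (SD, n = 3) and -1.60 ± 0.16 (SD, n = 3), in the same order as for miR-212-3p. For both arms of miR-212, neighbours in this order did not differ beyond their spread.

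**Figure D1:**
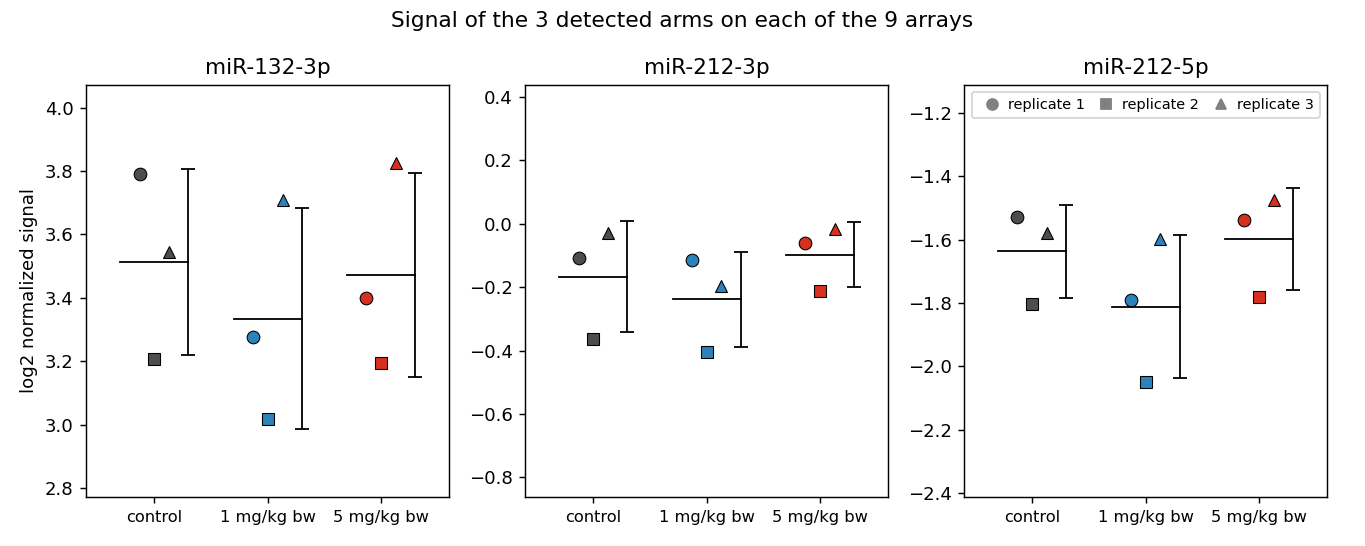
Log2 normalized signal (y axis) of the 3 detected arms in the saline control, the lower-dose and the higher-dose group (x axis, doses in mg/kg bw), with 1 symbol per array, shaped by replicate number, a line at the group mean and a bar of 1 SD. All panels span the same height on the y axis; the groups overlap in each, miR-132-3p spreads the most within groups, and replicate 2 is the lowest of each group.

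At the higher dose the differences of all 3 tested members from the control lay within the spread between arrays. For miR-132-3p the log2 difference was -0.041, with a standard error of 0.23 and, in limma, an adjusted p of 0.945. This is 0.972-fold of the control, with a 95% interval of 0.676- to 1.40-fold. miR-212-3p differed by 0.070 (adjusted p = 0.864 in limma, 95% interval -0.19 to 0.33). miR-212-5p differed by 0.039 (adjusted p = 0.904 in limma, 95% interval -0.27 to 0.35). The two-sided exact permutation tests gave p = 0.9, 0.6 and 0.6, and 3 against 3 arrays cannot give less than 0.1. A rise or fall of miR-132-3p beyond 1.40-fold or 0.676-fold lies outside its interval, and smaller ones could not be told from 0 with 3 arrays a group.

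Of the 424 miRNAs tested, 40 passed 0.05 before adjustment at the higher dose, or 9.43%, and 0, or 0%, after adjustment in limma. Of the 3 members, 0 passed either threshold. By p, miR-132-3p ranked 387, miR-212-3p 272 and miR-212-5p 366 of 424. The groups were free of overlap for 16.0% of the tested miRNAs and for 0 of the 3 members. The sign of the change was settled for none of the 3 members. For miR-132-3p the total signal given in the files put it at 0.12 and unscaled values put it at 0.073, where the median of all tested miRNAs moved by 0.14 and 0.11. Without control replicate 1 or replicate 2 of the higher dose it was 0.098, and with a block for the slide row, which overlaps in part with the dose, it was 0.11. That block groups replicate 3 of the higher dose, which lay on another slide, with the control arrays. Without control replicate 2, miR-212-3p differed by -0.029 and miR-212-5p by -0.044, and miR-212-5p differed by -0.022 without replicate 3 of the higher dose.

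At the lower dose the 3 members had values below the control, by amounts within the spread between arrays. For miR-132-3p the log2 difference was -0.18, with a standard error of 0.23, a 95% interval of -0.70 to 0.34 and, in limma, an adjusted p of 0.865. This is 0.883-fold of the control, with an interval of 0.614- to 1.27-fold. miR-212-3p differed by -0.072 (adjusted p = 0.902 in limma, 95% interval -0.33 to 0.19). miR-212-5p differed by -0.17 (adjusted p = 0.799 in limma, 95% interval -0.49 to 0.14). The two-sided exact permutation tests gave p = 0.5, 0.5 and 0.3. The median over all tested miRNAs was -0.032. Of all tested miRNAs 7.78% were at an unadjusted p under 0.05, 0.236% at an adjusted p under 0.05, and 12.3% were free of overlap, against 0 of the 3 members by each measure. The value of miR-212-3p changed sign to 0.012 without replicate 2 of the lower dose, and to 0.030 with the block for the slide row.

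Between the doses the members had values of 0.14 (miR-132-3p, 95% interval -0.39 to 0.66), 0.14 (miR-212-3p, 95% interval -0.12 to 0.40) and 0.21 (miR-212-5p, 95% interval -0.098 to 0.53). The adjusted p was 0.995 for each in limma, and the two-sided exact permutation tests gave p = 0.6, 0.3 and 0.2. Of the tested miRNAs, 3.77% were at an unadjusted p under 0.05, 0.236% at an adjusted p under 0.05 and 7.31% free of overlap, against 0 of the 3 members by each measure. With the replicate number as a block, the unadjusted p of miR-212-5p in limma was 0.0275 (adjusted p = 0.919), and without replicate 3 of the lower dose it was 0.0496 (adjusted p = 0.984). The value of miR-132-3p turned to -0.038 without replicate 3 of the higher dose and to -0.020 without replicate 2 of the lower dose, and was 0.33 without replicate 3 of the lower dose. Since this comparison and that of the lower dose with the control share the arrays at the lower dose, low values there appear in both.

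Taking the groups as 3 ordered steps, from saline to the lower and then the higher dose, the slopes were -0.020 per step for miR-132-3p, 0.035 for miR-212-3p and 0.019 for miR-212-5p. The two-sided exact permutation tests over 1680 arrangements of the arrays gave p = 0.875, 0.565 and 0.813.

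**Figure D2:**
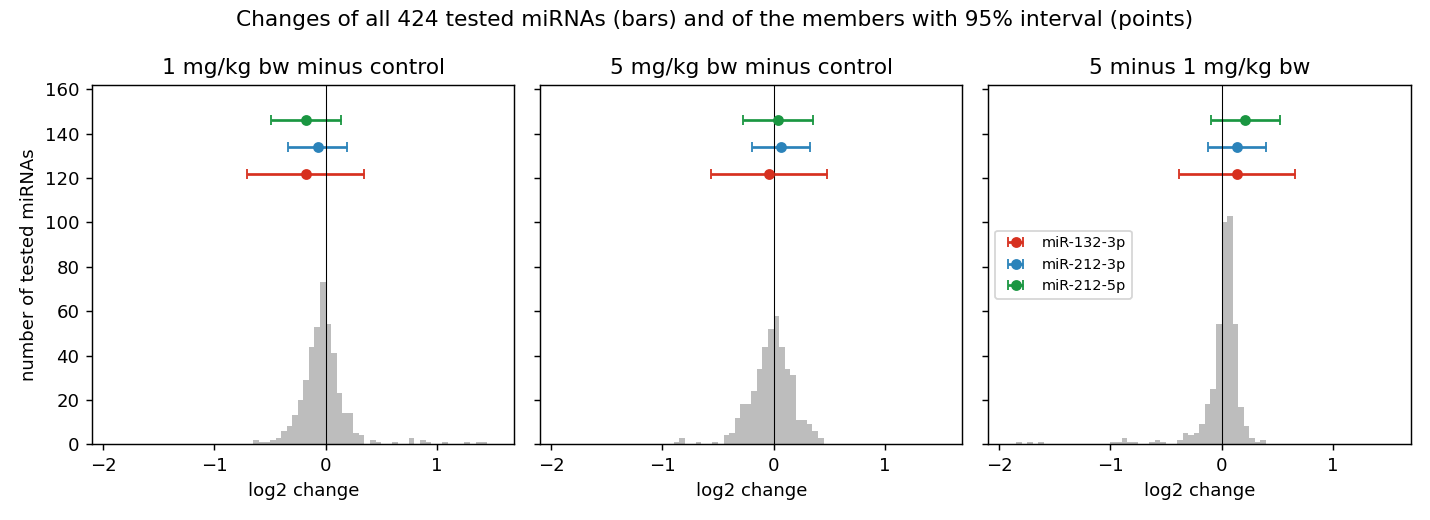
Log2 change (x axis) of the 424 tested miRNAs as a histogram (y axis, number of miRNAs) for each comparison, with the change of each member and its 95% interval drawn above it at a height that carries no value. The members lie in the bulk of the distribution, all 9 intervals include 0, and the interval of miR-132-3p is the widest.

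The replicates of 1 group differed more in miR-132-3p than in most miRNAs. Its SD within groups, pooled over the 3 groups, was 0.32 on the log2 scale, rank 29 from the highest of the 395 miRNAs detected on all 9 arrays and above 92.7% of them. The median of all 395 was 0.14. miR-212-5p had 0.18 (rank 128) and miR-212-3p 0.15 (rank 181). The error that the spots of both probes together leave in their summed signal was much smaller. Its median over the arrays was 0.011, 0.014 and 0.018 for miR-132-3p, miR-212-3p and miR-212-5p. This error covers only the reading of 1 array, since its spots share the extraction, labelling and hybridization. The spread between mice and that of those steps cannot be told apart here. Both probes of a member also moved together across the 9 arrays, with a Pearson r of 0.995 for miR-132-3p, 0.946 for miR-212-3p and 0.967 for miR-212-5p, which is given as a description since both probes read the same RNA on the same array.

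**Figure D3:**
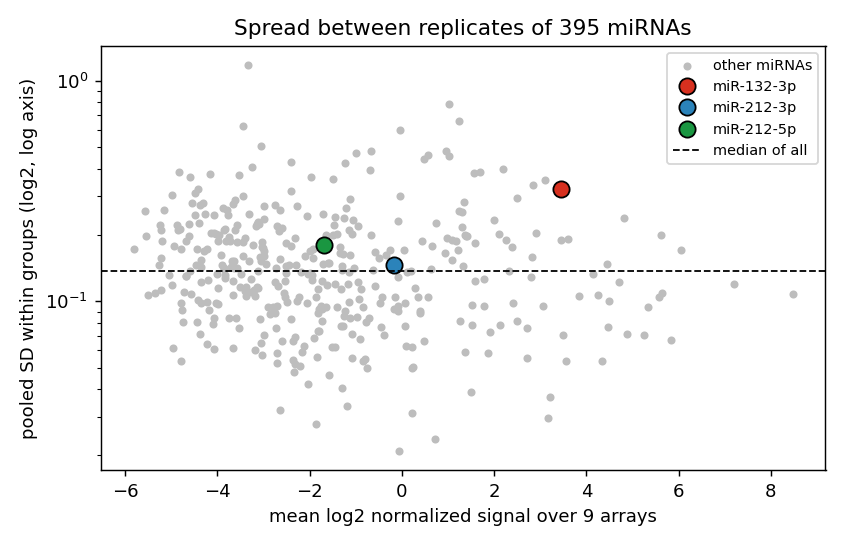
SD between replicates, pooled over the 3 groups (y axis, log2 units on a log axis), against the mean log2 normalized signal over the 9 arrays (x axis) for 395 miRNAs, with the dashed line at the median of all. miR-132-3p lies at 0.32, well above the median of 0.14, and both miR-212 arms lie at 0.15 and 0.18, near it.

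The 3 arms varied together from array to array. For miR-132-3p and miR-212-5p, which come from different hairpins of the transcript, Pearson's r was 0.894 (n = 9, two-sided exact permutation p = 0.00101, adjusted p = 0.00304 over the 3 pairs) and Spearman's rho 0.883 (exact permutation p = 0.00308, adjusted p = 0.00461). For both arms of miR-212, r was 0.852 (n = 9, exact permutation p = 0.00300, adjusted p = 0.00450) and rho 0.883 (exact permutation p = 0.00308, adjusted p = 0.00461). For the 3p guides, miR-132-3p and miR-212-3p, r was 0.706 (n = 9, exact permutation p = 0.0357, adjusted p = 0.0357) and rho 0.800 (exact permutation p = 0.0138, adjusted p = 0.0138). The lowest array for all 3 arms was replicate 2 of the lower dose and the highest replicate 3 of the higher dose. That highest array was the only one on slide 2, so for it slide and mouse cannot be told apart.

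These relations were present within the groups. On deviations from the group means r was 0.931 for miR-132-3p and miR-212-5p, 0.832 for both arms of miR-212 and 0.712 for both guides. Without scaling between arrays r was 0.934, 0.911 and 0.852 in the same order. There the brightness of an array enters all its miRNAs alike, which by itself raises r. The r of the guides was lower under some other scalings, as given further below. Without the 2 arrays farthest from the median of the first-named arm, r was 0.858 (exact permutation p = 0.0171, adjusted p = 0.0512) for miR-132-3p and miR-212-5p. It was 0.632 (exact permutation p = 0.119, adjusted p = 0.121) for the arms of miR-212 and 0.640 (exact permutation p = 0.121, adjusted p = 0.121) for the guides. The adjusted p of each pair was thus above 0.05 over the 7 arrays left, with the same sign of r. The adjusted p of the guides was also above 0.05 when control replicate 2 or 3, replicate 2 of the lower dose, or replicate 2 or 3 of the higher dose was left out, with r between 0.55 and 0.71 and adjusted p between 0.0530 and 0.145 (exact permutation).

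Replicate 2 was the lowest array of its group in all 3 groups for each of the 3 arms, which was the case for 28 of the 395 miRNAs detected on all arrays, or 7.1%. Replicate 1 was the lowest throughout for 4 and replicate 3 for 10 of them. The design text speaks of 3 independent experiments, but does not say that a replicate number marks an experiment, a day or a litter. With the means of the replicate numbers removed, r was 0.713 (permutation, adjusted p = 0.0920) for miR-132-3p and miR-212-5p. It was 0.556 (adjusted p = 0.184) for the arms of miR-212 and 0.105 (adjusted p = 0.789) for the guides. The part of the replicate number in these relations was not tested further. With a block for the slide row r was 0.664 for the guides (permutation, adjusted p = 0.0531, approximate for the same reason). The rows hold 5 and 4 arrays, and no r over so few arrays is given for a single row.

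**Figure D4:**
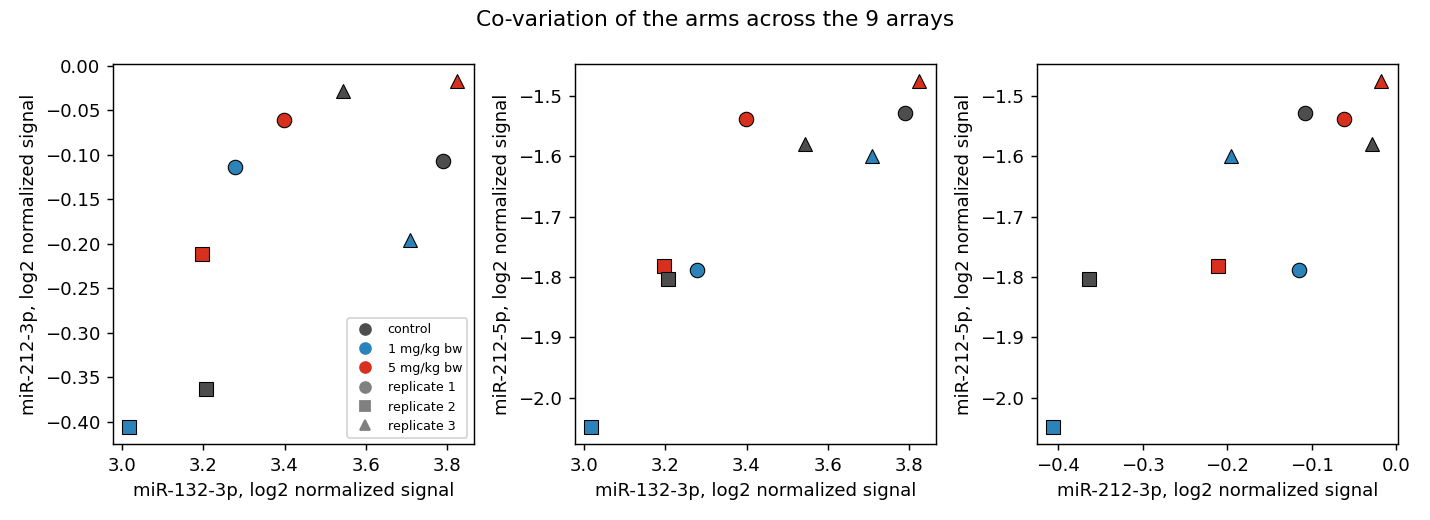
Log2 normalized signal of each pair of detected arms on the 9 arrays, with colour for the group and shape for the replicate number. In each panel the points run from replicate 2 of the lower dose at the lower left to replicate 3 of the higher dose at the upper right. The latter is the only array on slide 2. The 3 groups are interspersed along the run, and r is 0.706, 0.894 and 0.852 from left to right.

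Co-variation of arms was common among other hairpins. Both arms were detected on all 9 arrays for 60 hairpins, and their r had a median of 0.596 with quartiles of 0.361 and 0.853, from -0.434 to 0.965. It was above 0 for 55 of the 60. miR-212, at 0.852, ranked 16 of the 60, and on deviations from the group means it ranked 22, where the median was 0.670. These are correlations over the same 9 arrays and share their scaling, so they are given as a description. miR-132 is not among the 60, since miR-132-5p was not detected.

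**Figure D5:**
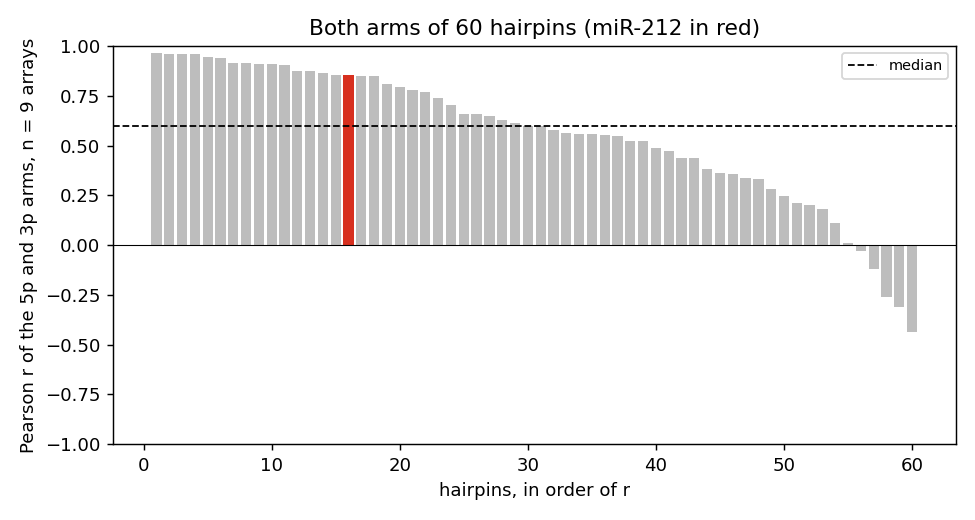
Pearson r of the 5p and 3p arms over the 9 arrays (y axis) for the 60 hairpins with both arms detected on every array, in order of r (x axis), with the dashed line at the median of 0.596. miR-212, in red, stands at rank 16, within the upper part of a distribution that is mostly above 0.

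The arms were also ranked among all 394 other miRNAs detected on the 9 arrays. By r over the 9 arrays, the miRNA most similar to miR-212-3p was its own opposite arm, miR-212-5p, and miR-132-3p was at rank 8. On deviations from the group means these ranks were 5 and 17. Seen from miR-212-5p, miR-132-3p was at rank 3 and miR-212-3p at rank 5, or 3 and 14 on those deviations. Seen from miR-132-3p, miR-212-5p was at rank 9 and miR-212-3p at rank 67, or 15 and 84 on those deviations, and the median r with all others was 0.085. The miRNAs most like miR-132-3p were miR-674-3p (r = 0.961), miR-129-1-3p (r = 0.942) and miR-7a-1-3p (r = 0.935), and 7 miRNAs had an r above 0.9, or 22 on deviations from the group means. Those most like miR-212-3p, with the members left out, were miR-674-5p (r = 0.825), miR-3968 (r = 0.823) and miR-6402 (r = 0.805). Each r is over 9 arrays, and since the miRNAs were picked as the highest no test is given.

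Differences between the groups in the balance of members lay within the spread between arrays. The log2 difference of miR-132-3p minus miR-212-3p within an array, whose size depends on the probes and is used only to compare groups, was 3.68 ± 0.19 (SD, n = 3) in the control group, 3.57 ± 0.29 (SD, n = 3) at the lower dose and 3.57 ± 0.24 (SD, n = 3) at the higher dose. Against the control this is -0.11 at both doses (two-sided exact permutation tests, p = 0.6 at the lower dose and 0.5 at the higher dose). For miR-212-3p minus miR-212-5p, the balance of guide and opposite arm, the values were 1.47 ± 0.070 (SD, n = 3), 1.57 ± 0.15 (SD, n = 3) and 1.50 ± 0.060 (SD, n = 3), with differences of 0.10 and 0.031 from the control (exact permutation p = 0.4 and 0.5). Adjusted over the 6 comparisons made, the lowest p was 0.72.

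The listed neuronal miRNAs did not move as a block with miR-132-3p. Over the 9 arrays r with miR-132-3p was 0.897 for miR-124-3p and 0.858 for miR-128-3p, 0.626 for miR-9-3p and 0.140 for miR-9-5p, but -0.627 for miR-138-5p and -0.773 for miR-137-3p. Their summed signal ran on the log2 scale from 7.41 to 7.58 in the control group, 7.23 to 7.42 at the lower dose and 7.39 to 7.54 at the higher dose. Such a sum weights each marker by the brightness of its probes, and miR-124-3p and miR-128-3p together made up 64.1 to 73.2% of it. The r of the sum with miR-132-3p was 0.878 (n = 9, two-sided exact permutation p = 0.000810, adjusted p = 0.00486 over the 6 marker lists examined) and rho 0.917 (exact permutation p = 0.00131), and r was 0.785 without the 2 arrays farthest from the median and 0.976 on deviations from the group means. With miR-212-5p r was 0.891 (n = 9, exact permutation p = 0.000540) and with miR-212-3p 0.659 (n = 9, exact permutation p = 0.0523), adjusted to 0.00122 and 0.0523 over the 3 such relations. With equal weight for the 6 markers, as the mean of their log2 values, r was -0.076 for miR-132-3p, 0.339 for miR-212-3p and 0.335 for miR-212-5p (exact permutation, adjusted p = 0.842, 0.569 and 0.569), so that the relation of the sum did not extend to the list as a whole. The part of the cell make-up of the samples in the spread of miR-132-3p was not tested, and fewer cells of a type cannot be told apart from less RNA per cell in such samples.

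The other marker lists, summed in the same way, had an r with miR-132-3p of 0.679 (vessel wall, exact permutation p = 0.0455, adjusted p = 0.137, and r = 0.349 without the 2 farthest arrays), 0.388 (oligodendrocytes), -0.095 (microglia and leukocytes), -0.311 (blood) and -0.471 (choroid plexus, -0.907 without the 2 farthest arrays). The choroid plexus list ran from 1.62 to 2.29 in the control group, from 2.42 to 3.13 at the lower dose, without overlap with the control, and from 1.51 to 2.48 at the higher dose. Of all tested miRNAs, 12.3% were free of overlap between the lower dose and the control. The part of the choroid plexus in the values of the members at the lower dose was not tested. Of the 5 miRNAs listed for microglia and leukocytes, miR-142-5p was not detected. The sums rest on 2 of 3 listed names for oligodendrocytes, 2 of 4 for blood and 3 of 4 for vessels, since the other names were not on the array. A name not on the array need not be a miRNA that was not measured. The array held miR-145a-5p, detected on all 9 arrays, which the vessel list named otherwise and the sum left out.

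Among 16 other miRNAs tied to neuronal activity or synaptic plasticity, 12 were tested, and as with the members few values stood apart from the control. At the higher dose 6 had higher and 6 lower values, with a median of -0.020 beside -0.0035 for all tested miRNAs. Of all 424, 217 had values below 0. At an unadjusted p under 0.05 1 of the 12 was higher and 1 lower, beside 9.43% of all tested miRNAs in either direction, and 0 passed an adjusted p under 0.05 in limma. miR-381-3p, of the large imprinted cluster on which activity-regulated miRNAs such as miR-134 lie, differed by 0.33 (standard error 0.090, unadjusted p = 0.00571, adjusted p = 0.376 in limma). miR-92a-3p, of the miR-17-92 family, differed by -0.31 (standard error 0.13, unadjusted p = 0.0427, adjusted p = 0.502 in limma). The largest value was that of miR-34a-5p, a p53-regulated miRNA, at -0.66, with a standard error of 0.55. At the lower dose 3 of the 12 had higher and 9 lower values, with a median of -0.069 beside -0.032 for all, of which 255 of 424 were below 0. Here 0 of the 12 passed an unadjusted p under 0.05 in limma, beside 7.78% of all. Between the doses 10 had higher and 2 lower values, with a median of 0.079 beside 0.041 for all, of which 136 of 424 were below 0, and 0 of the 12 passed an unadjusted p under 0.05 in limma, beside 3.77% of all. The other 4 of the 16, miR-184-3p, miR-182-5p, miR-96-5p and miR-183-5p, were detected on 2 arrays or fewer and were not tested.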

How the data were processed

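Total RNA was labelled with Cy3 and hybridized to 1-colour Agilent mouse miRNA arrays. The authors' deposited scanner files hold intensity values, which per the submitters' processing notes come from Agilent Feature Extraction 10.7: background-subtracted spot signals, flags for outlier and saturated spots, and a detection call and total signal per miRNA, not normalized between arrays. The authors also deposited a table of log2 values, whose normalization is not given in the sources used here, used as an alternative. After removal of outlier spots, the mean over spots was taken for each probe and the sum over probes for each miRNA. Arrays were scaled to their 75th percentile, taken over the 395 miRNAs with a detection call on every array. A floor at the lowest detected signal was set per array before log2 was taken. Of 1247 miRNAs, 424 had a detection call on all 3 arrays of some group and entered the tests.

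The 3 groups were fitted over all 9 arrays with limma 3.58.1 (R 4.3.3), with Benjamini-Hochberg adjustment over all 424. This gives the groups 1 estimate of spread, like the LSD comparison named in the study's statistics does; that comparison, without moderated variances, was run as an alternative. Single values were compared by exact permutation of the arrays, and correlations over all orders of the 9 arrays. The fit was tested on simulated, independent arrays without slide or replicate structure, with a known shift larger than any change of the members. This checks the computation only. The members and lists were chosen with earlier results of these data known. Named miRNAs are the members and the 3 most similar to miR-132-3p and to miR-212-3p. Also named are the activity-related miRNAs at an unadjusted p under 0.05 or with the 2 largest changes, and the first marker of each list. The other neuronal markers, the untested activity-related miRNAs, miR-142-5p and miR-145a-5p were named after their values were seen. The marker lists, of 3 to 6 names each, cover neurons, oligodendrocytes, microglia and leukocytes, blood, vessels and choroid plexus. Names not on the array or not tested were left out of the sums.

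No 2 arrays shared a signal at any of 49880 spots. Slide 2 carried only replicate 3 of the higher dose, in its first row. The row block counts this array with the first row of slide 1. On slide 1, the first row carried all control arrays with replicate 1 of the lower dose, and the second row the remaining 4 arrays. Same-numbered replicates were not treated as pairs. Depth has no counterpart here, and the number of arrays limits the precision. The alternatives were other background corrections, probe summaries, scalings and filters, the deposited table, other variance models, the replicate number or the slide row as a block, each array left out and, chosen after seeing the data, equal weights for the neuronal markers.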

Additional observations from a re-analysis of the deposited data

How the results depend on the processing

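The 9 changes of the 3 tested members were each recomputed under 26 alternatives. All 234 values had an adjusted p above 0.05 (lowest 0.291), and 16 had the opposite sign. For the changes that follow, the cause was not tested. miR-132-3p at the higher dose, at -0.041, was 0.12 from the total signal, 0.033 with quantile normalization, 0.073 without scaling, 0.024 in the deposited log2 table and 0.11 with a block for the slide row. miR-212-3p at the lower dose, at -0.072, was 0.067 with the total signal, 0.037 without scaling and 0.030 with the row block. Dropping 1 array gave -0.22 to 0.098 for miR-132-3p, -0.029 to 0.14 for miR-212-3p and -0.044 to 0.13 for miR-212-5p at the higher dose, -0.17 to 0.012 for miR-212-3p at the lower dose, and -0.038 to 0.33 for miR-132-3p between the doses. Control replicate 2, control replicate 1 and replicates 2 and 3 of the higher dose were the arrays whose loss turned a sign at the higher dose.

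The slope of miR-132-3p was 0.058 with the total signal, 0.037 without scaling, 0.012 in the deposited table and 0.066 with the row block, and without 1 array it lay between -0.11 and 0.056. For miR-212-3p it lay between -0.0024 and 0.075 and for miR-212-5p between -0.024 and 0.059. The change of miR-132-3p minus miR-212-3p at the lower dose was 0.10 in the deposited table and -0.27 to 0.0016 without 1 array, at the higher dose 0.16 with the row block, and between the doses 0.023 with normexp and -0.14 to 0.16 without 1 array. That of miR-212-3p minus miR-212-5p at the higher dose was -0.0049 in the deposited table, -0.013 with the row block and -0.0037 to 0.071 without 1 array.

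The r of both guides was 0.645 with scaling over all miRNAs, 0.509 with quantile normalization, 0.559 in the deposited table, 0.664 with the row block and 0.554 to 0.782 without 1 array, and 0.640 without the 2 farthest arrays, where the other pairs had 0.858 and 0.632. Dropping 1 array gave 0.871 to 0.954 for miR-132-3p and miR-212-5p and 0.734 to 0.913 for the arms of miR-212. With the replicate number as a block the 3 values of r were 0.105, 0.713 and 0.556, each with an approximate adjusted p above 0.05, and no call among the members' changes, slopes and balances was altered. Same-numbered arrays had correlations of their deviations from -0.65 to 0.74 across all tested miRNAs. These were 0.28, 0.74 and 0.14 for replicate 2, -0.039, -0.65 and 0.36 for replicate 1 and -0.030, -0.37 and 0.39 for replicate 3. The labels do not say what arrays of the same number share, and this was not tested. With the block the counts at an unadjusted p under 0.05 were 36, 36 and 15.

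With equal weight for the 6 neuronal markers, an alternative chosen after seeing the data, r was -0.076 with miR-132-3p and 0.335 with miR-212-5p, against 0.878 and 0.891 for their sum.

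Over all tested miRNAs the counts at an unadjusted p under 0.05 were 33 (lower dose), 40 (higher dose) and 16 (higher against lower dose). They were 14, 17 and 9 with normexp, 70, 72 and 35 with array quality weights, 8 and 14 for both doses with the row block, and 102 at the higher dose with the total signal. Without 1 array they were 11 to 49, 21 to 120 and 8 to 35, with the highest counts at the higher dose (120) and between doses (35) without replicate 3 of the higher dose and the lowest at the lower dose (11) without control replicate 1. At an adjusted p under 0.05 the counts were 1, 0 and 1. At the lower dose this became 0 with normexp, the deposited table, the arrays of 2 groups alone, no moderation and without control replicate 2 or 3 (0 to 1 without 1 array). Between doses it was 0 in the deposited table and 2 with the total signal, and at the higher dose 2 with the total signal. Without a filter on dim miRNAs 780 and 758 passed the unadjusted and adjusted thresholds at the lower dose. Of these, 755 and 741 lay outside the 424, among miRNAs detected on too few arrays to be tested otherwise. A signal below the floor of its array takes the value of that floor. The log2 floors were -6.09, -6.16 and -5.93 on the control arrays and -6.07, -6.61 and -6.68 at the lower dose. All miRNAs at the floor on these arrays therefore share the same difference, that of the floors. The counts without the filter cannot be read as counts of changed miRNAs, and the part of the floors in them was not tested.

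A block for the slide equals the fit without replicate 3 of the higher dose and was not run separately. The balance of miR-132-3p and miR-132-5p was not computed, since miR-132-5p was at background.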
